A study of Homo sapiens with 60 samples.

Results

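The genes described here are 9 genes of Wnt signalling, its feedback and the stem cells of the intestine: AXIN2, RNF43, ZNRF3, LGR5, ASCL2, NKD1, TCF7, LEF1 and CTNNB1. They were chosen by symbol, as a set known for its roles, from the 29744 genes of a count table. The choice was made with earlier results of these data known, those of AXIN2 and RNF43 in particular. All 9 genes have a row in the table. Of these, 6 had enough counts to be tested, and LGR5, ASCL2 and LEF1 did not. RNA came from spheroids, small cell balls grown in agarose wells, of HCT116, a human colorectal cancer line. HCT116 carries a mutation of CTNNB1 on 1 allele that protects its protein, beta-catenin, from breakdown, and a frameshift mutation of RNF43, so every group shares both. The 60 libraries form 12 groups of 5 in 2 media, Medium 1 and Medium 2. In each medium spheroids were left untreated or were given hemin (0.1 µM), butyrate (1 µM), kynurenic acid (1 µM), kynurenine (1 µM) or hemin and kynurenine at these doses together, from day 1 to day 8. According to the design text, spheroids were sampled at once or after 3 h in a medium poor in nutrients. The labels do not tie Medium 1 or Medium 2 to either of these, so both keep their label names.

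Wnt proteins bind Frizzled receptors and LRP5 or LRP6 and thereby stop a destruction complex, built on APC and AXIN proteins, from marking beta-catenin for breakdown. Beta-catenin then enters the nucleus, joins DNA-binding proteins of the TCF and LEF family and turns on target genes. Several targets act back on the pathway. AXIN2 rebuilds the destruction complex, NKD1 binds Dishevelled, and the membrane ubiquitin ligases RNF43 and ZNRF3 remove Frizzled from the cell surface. R-spondins, which bind LGR4, LGR5 or LGR6, take these ligases away again. In the crypts of the gut LGR5 and the transcription factor ASCL2 mark stem cells, and both are Wnt targets. Colon cancers with stabilised beta-catenin usually express AXIN2 and other targets without a Wnt signal.

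RNF43 passed the test between media in more treatments than the other members did, so its start regions are shown here. That of CTNNB1 is shown too, the 1 member called higher in Medium 2, with hemin and in the average over treatments. TCF and LEF proteins recognise short sites that hold CTTTGA or CTTTGT, and both were searched on both strands in the 250 bases before each gene start of RefSeq (GRCh38.p14). Promoters of 4 of the 9 genes were in the RefSeq table. The capitals mark a match, written ACAAAG where the match lies on the opposite strand, and all runs read 5′ to 3′ along the gene's strand.
RNF43 start 1, chr17:58417535-58417784, minus strand: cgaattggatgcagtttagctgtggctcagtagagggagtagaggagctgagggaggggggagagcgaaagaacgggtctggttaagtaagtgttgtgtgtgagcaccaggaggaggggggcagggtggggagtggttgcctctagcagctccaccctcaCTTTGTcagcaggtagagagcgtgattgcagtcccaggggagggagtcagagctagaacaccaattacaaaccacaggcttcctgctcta
RNF43 start 2, chr17:58402722-58402971, minus strand: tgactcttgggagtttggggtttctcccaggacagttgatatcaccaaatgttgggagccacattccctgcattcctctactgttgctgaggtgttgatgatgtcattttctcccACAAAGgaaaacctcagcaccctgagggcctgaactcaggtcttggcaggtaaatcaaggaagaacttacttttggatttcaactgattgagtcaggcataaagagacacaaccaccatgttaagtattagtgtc
CTNNB1, chr3:41199255-41199504, plus strand: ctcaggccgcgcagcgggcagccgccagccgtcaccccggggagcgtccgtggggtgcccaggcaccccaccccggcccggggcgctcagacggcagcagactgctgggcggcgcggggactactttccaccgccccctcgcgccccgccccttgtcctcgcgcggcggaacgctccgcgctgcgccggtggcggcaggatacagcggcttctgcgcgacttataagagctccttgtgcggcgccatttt
Each RNF43 start had 1 match, both to CTTTGT, with first bases 90 and 135 bases before the start, and the CTNNB1 window had none of these letters. Of the members not shown, TCF7 had 0 matches at start 1 and 2 at start 2, both to CTTTGT, and LEF1 had 0. A link between matches and the direction of change was not tested. Of 35116 promoters, 11.2% held CTTTGA, 13.7% held CTTTGT and 22.8% held either, so a match is a description of the letters and not a binding site.

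Each library is a count of transcript ends with unique molecular identifiers, in which 1 count stands for about 1 molecule whatever the length of the gene. Levels in counts-per-million (CPM) can therefore be compared between genes, but only roughly, because the ends of some genes overlap those of others. Totals ran from 1346147 to 3083249 counts per library. The libraries of wells A7 (kynurenine, Medium 2) and B2 (butyrate, Medium 1) lay farthest from the mean of their group. All Medium 1 libraries lay in plate columns 1 to 4 and all Medium 2 libraries in columns 4 to 8, so medium and plate column cannot be told apart. The epithelial markers, EPCAM, KRT8, KRT18, KRT19, CDH1, CDX2 and CLDN7, were present in both media, with summed levels from 1260 to 1890 CPM in Medium 1 and from 1250 to 1630 CPM in Medium 2. Of 6 fibroblast markers COL1A2, COL3A1 and LUM had 0 counts, and COL1A1 was lower in Medium 2, at 4.06 CPM against 9.04 CPM (averaged log2 fold change -1.15, adjusted p = 3.53e-08). The 5 immune markers summed to at most 3.93 CPM, with CD3E and MS4A1 at 0, and the 3 endothelial markers to at most 2.43 CPM.

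Among the 6 tested genes CTNNB1 was by far the most abundant, at 376 ± 65.2 CPM (SD, n = 60). TCF7 followed at 31 ± 7.59 CPM, RNF43 at 19 ± 8.15 CPM, ZNRF3 at 17.8 ± 6.04 CPM, AXIN2 at 7.75 ± 4.12 CPM and NKD1 at 5.70 ± 1.96 CPM. RNF43 and ZNRF3, and AXIN2 and NKD1, were neighbours in this order that differed by less than the SD between libraries. The order was not the same in both media: RNF43 stood above ZNRF3 in Medium 1, at 25.7 ± 5.72 against 19.3 ± 6 CPM (n = 30), and below it in Medium 2, at 12.2 ± 2.88 against 16.4 ± 5.82 CPM (n = 30). AXIN2 and NKD1 rested on few counts, a median of 13 and 10 per library, against 33.5 for RNF43 and 707 for CTNNB1. At these medians counting error alone is 27.7% for AXIN2, 31.6% for NKD1, 17.3% for RNF43 and 3.76% for CTNNB1.

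**Figure D1:**
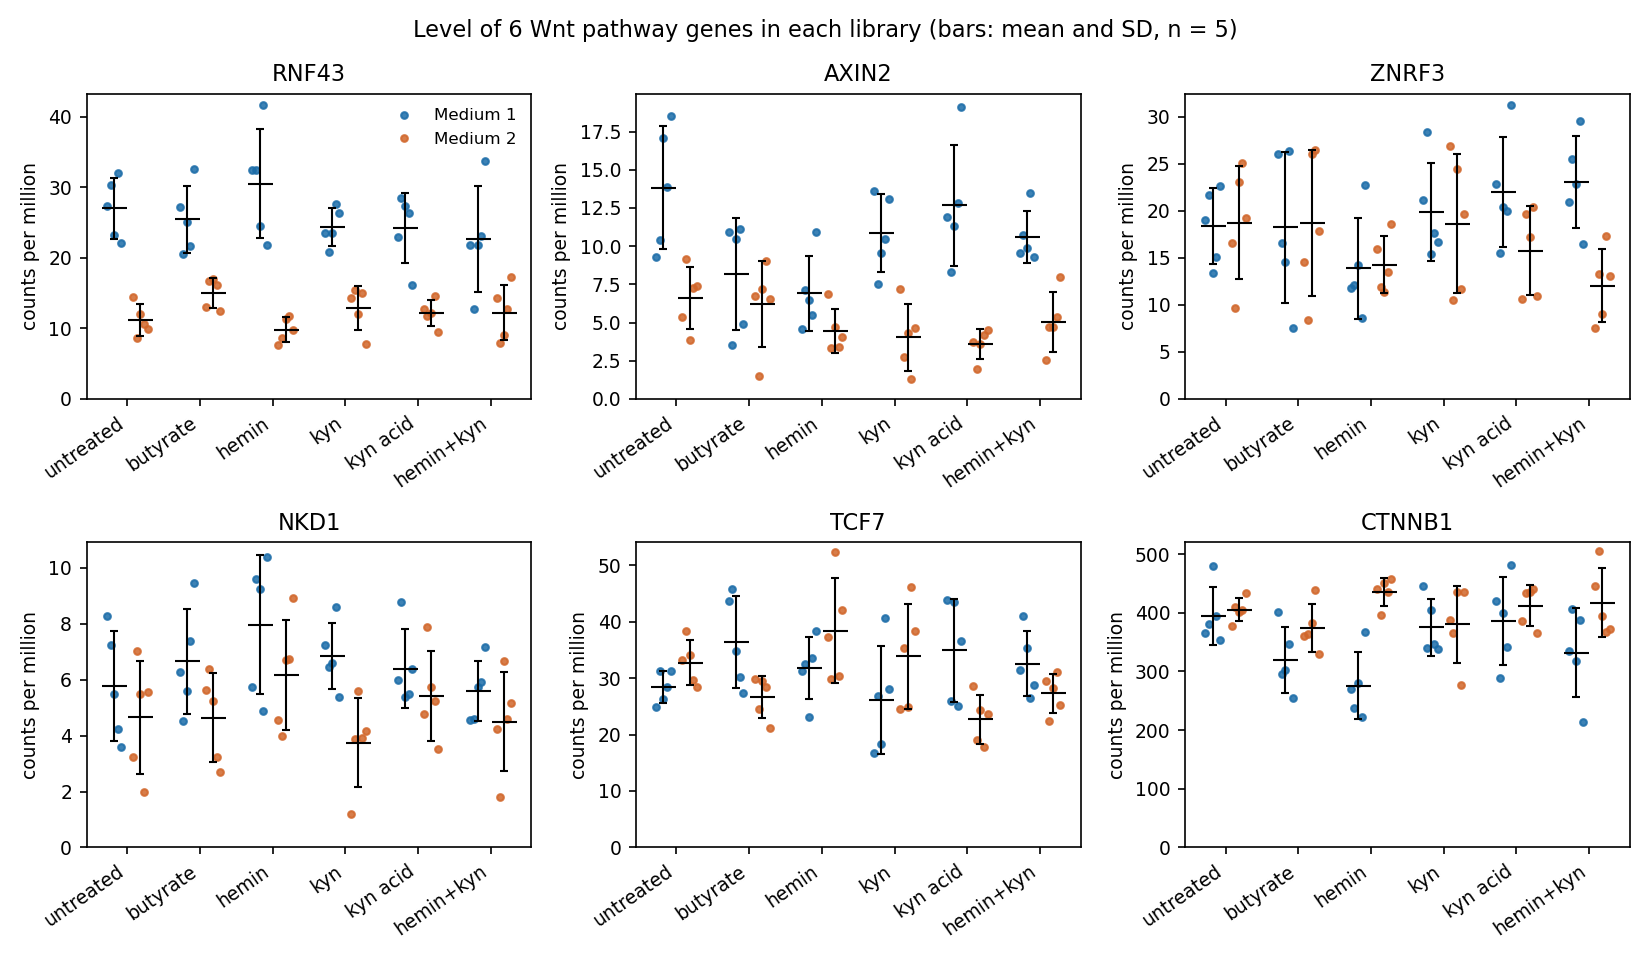
Level of the 6 tested genes in CPM, by treatment (kyn, kynurenine) and medium, with each point a library and bars for the mean and SD of 5 libraries. RNF43 is lower in Medium 2 under each of the 6 treatments, AXIN2 has lower means there too, and CTNNB1 differs most under hemin, where Medium 1 lies between 222 and 368 and Medium 2 between 396 and 457.

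RNF43 RNA was lower in Medium 2 than in Medium 1 under each of the 6 treatments. RNF43 encodes a ubiquitin ligase of the cell membrane that lowers Frizzled levels. In untreated spheroids the 5 libraries of Medium 1 had 27.3, 30.3, 23.2, 32.1 and 22.1 CPM, and those of Medium 2 had 14.5, 8.64, 12.1, 10.6 and 9.90 CPM. Every library of Medium 2 lay below every library of Medium 1, which 4.46% of the 11298 tested genes also showed in that direction. Means were 27 ± 4.35 and 11.1 ± 2.25 CPM (SD, n = 5), or -1.27 on the log2 scale (SE 0.21, adjusted p = 2.5e-05). This and all later adjusted p-values of genes are from the quasi-likelihood test of edgeR, adjusted by Benjamini and Hochberg's method over the 11298 genes. In bulk spheroids, fewer cells of a type and less RNA per cell cannot be told apart.

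With hemin the gap was 41.6, 32.4, 32.4, 24.5 and 21.8 CPM in Medium 1 against 7.62, 8.62, 11.4, 11.8 and 9.72 CPM in Medium 2, a log2 difference of -1.61 (SE 0.22, adjusted p = 2.82e-07). The lowest and the highest RNF43 levels of the 60 libraries are both among these. With butyrate RNF43 ran from 20.6 to 32.6 CPM in Medium 1 and from 12.5 to 17 CPM in Medium 2, with a log2 difference of -0.765 (SE 0.20, adjusted p = 0.00987). After thinning to equal depth this was -0.674 with an adjusted p of 0.0504. Kynurenine gave 20.9 to 27.7 against 7.79 to 15.4 CPM and kynurenic acid 16.2 to 28.5 against 9.54 to 14.6 CPM, with log2 fold changes of -0.925 (adjusted p = 0.00262) and -0.995 (adjusted p = 0.00123). Under the combination the ranges overlapped, 12.8 to 33.8 against 7.94 to 17.3 CPM, with a log2 fold change of -0.905 (adjusted p = 0.00134).

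So the libraries of the 2 media did not overlap for RNF43 in 5 of 6 treatments. The share of all tested genes that lay lower without overlap was 3.65% with butyrate, 5.28% with hemin, 3.37% with kynurenine and 3.73% with kynurenic acid. Passing the test as lower in every one of the 6 treatments was less common, with 97 of 11298 genes, or 0.859%. RNF43 was chosen with earlier results of these data known, so these shares are descriptions. Averaged over treatments RNF43 was 2.11-fold lower in Medium 2 (log2 fold change -1.08, SE 0.09, adjusted p = 3.26e-16).

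Some other values lie beside this result. The gene, on chromosome 17 from 58352500 to 58417595 on the minus strand (GRCh38, GENCODE v29), overlaps 3 other genes within its last 1000 bases, where these libraries are read: SUPT4H1 and a gene model that spans both on the same strand and TSPOAP1-AS1 on the other strand. Counts of RNF43 are uncertain to that extent, because no source used here states whether counting used strand or how it shared reads between genes. SUPT4H1, which encodes a transcription elongation factor, was at 256 CPM in Medium 1 and 272 CPM in Medium 2 (averaged log2 fold change 0.09, adjusted p = 0.145), so it did not pass the test where RNF43 did. The gene model and TSPOAP1-AS1 have no row in the count table, so their levels could not be compared. Sharing of reads between these genes was not tested. The 4 tested RNAs listed as a sign of RNA left in the nucleus were also lower in Medium 2, though where each RNA lies was not tested. NEAT1 was at 46.6 CPM in Medium 1 and 8.14 CPM in Medium 2 (averaged log2 fold change -2.53, adjusted p = 7.85e-26). MALAT1 was at 1740 and 998 CPM, SNHG1 at 209 and 116 CPM, and KCNQ1OT1 at 14.8 and 9.45 CPM. These 4 passed the test as lower in the average over treatments, as did 23.3% of all tested genes. MEG3, also among the 5 such RNAs listed, had too few counts to be tested. The part of these RNAs, and of COL1A1, in the RNF43 result was not tested.

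ZNRF3 encodes the sister ligase of RNF43, with the same action on Frizzled, and passed between media in 1 treatment. The difference between the 2 ligases was not tested. In untreated spheroids it had 19, 21.7, 13.4, 15.1 and 22.6 CPM in Medium 1 and 16.6, 9.72, 23.1, 25.1 and 19.2 CPM in Medium 2. These values overlap widely, and the log2 fold change was 0.01 with a 95% interval from -0.57 to 0.59 (adjusted p = 0.994). Averaged over treatments the log2 fold change was -0.24 (SE 0.12, adjusted p = 0.0937). It passed under 1 of 66 alternatives, with the butyrate library of well B2 left out (-0.277, adjusted p = 0.0381), and did not pass under the other 65.

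Only with hemin plus kynurenine was ZNRF3 lower in Medium 2 past the threshold. There it had 20.9, 25.5, 22.9, 29.6 and 16.5 CPM in Medium 1 and 7.59, 13.3, 9.03, 17.3 and 13.1 CPM in Medium 2, with 1 value of Medium 2 above the lowest of Medium 1. The log2 fold change was -0.92 (SE 0.28, adjusted p = 0.0188). The call ended without well E4 (adjusted p = 0.0544), without well H7 (0.075) or at equal depth (0.0633). The difference between this response and that of untreated spheroids was -0.93 on the log2 scale (SE 0.40, adjusted p = 0.539).

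Together the ligases summed to 45 ± 4.53 CPM in Medium 1 and 28.6 ± 6.83 CPM in Medium 2 (SD, n = 30). RNF43 made up 57.2% of that sum in Medium 1 and 42.8% in Medium 2. It exceeded ZNRF3 in 21 of 30 libraries of Medium 1 and in 6 of 30 of Medium 2. In untreated spheroids this was 4 of 5 and 0 of 5 libraries, with ratios of RNF43 to ZNRF3 from 0.977 to 2.12 in Medium 1 and from 0.421 to 0.889 in Medium 2. The widest ratios were in Medium 1 with hemin, with a median of 2.68, and the combination had a median near 1 in both media, 0.955 and 1. These ratios are descriptions without a test.

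**Figure D2:**
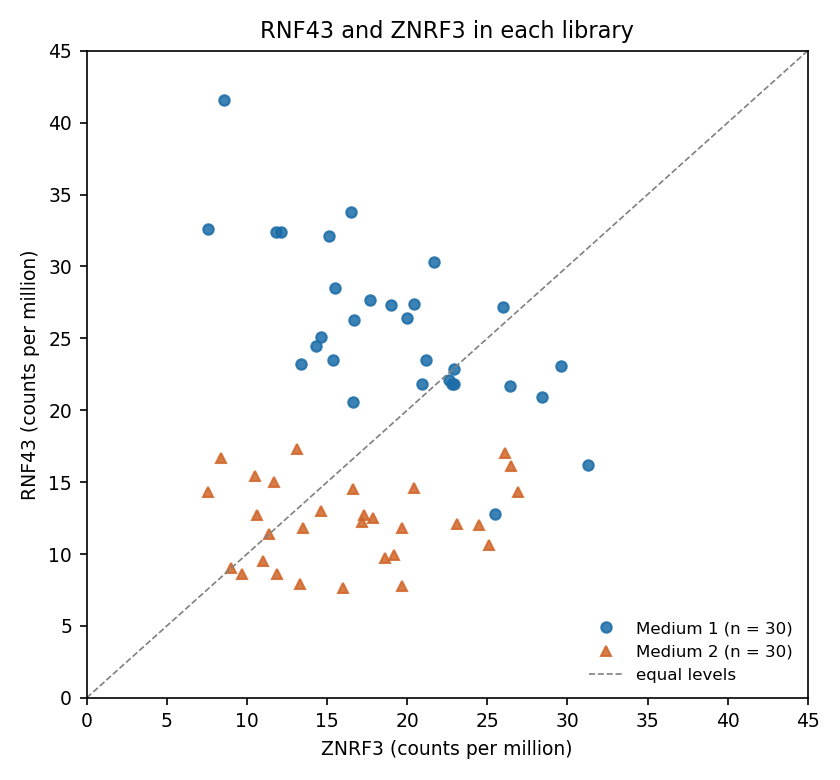
RNF43 against ZNRF3 in CPM, with each point a library, blue circles for Medium 1, orange triangles for Medium 2 and a dashed line where both genes are equal. Medium 2 lies lower on the RNF43 axis, from 7.62 to 17.3 against 12.8 to 41.6 in Medium 1 with overlap at the edge, the media share most of their range on the ZNRF3 axis, and 21 of 30 libraries of Medium 1 against 6 of 30 of Medium 2 lie above the line.

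AXIN2, the scaffold that is made in answer to Wnt signalling and limits it, was also lower in Medium 2. The untreated libraries had 9.26, 10.4, 17.1, 13.9 and 18.5 CPM in Medium 1 and 5.36, 9.18, 3.85, 7.26 and 7.42 CPM in Medium 2. The groups did not overlap, which 4.46% of all tested genes also showed as lower, though the highest library of Medium 2 nearly met the lowest of Medium 1. Means were 13.8 ± 4.03 and 6.61 ± 2.05 CPM (SD, n = 5), with a log2 difference of -1.05 (SE 0.32, adjusted p = 0.0301). That call depends on single libraries and on the filter: it ended without any 1 of the wells C1, D1, E1, G4, A5 and B5, with adjusted p up to 0.109, and without a filter on low counts (0.0585). RNF43 and AXIN2 were the 2 tested members that passed in untreated spheroids, both lower, and 3.69% of all tested genes were lower and 2.69% higher there.

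Kynurenic acid gave the widest AXIN2 gap. Its libraries had 11.9, 8.28, 11.3, 12.8 and 19.1 CPM in Medium 1 and 3.71, 1.97, 3.58, 4.19 and 4.52 CPM in Medium 2, with no overlap, for a log2 difference of -1.77 (SE 0.35, adjusted p = 0.000364). Of all tested genes 3.73% also lay lower without overlap with kynurenic acid. With kynurenine the values ran from 7.51 to 13.6 against 1.30 to 7.17 CPM, with a log2 difference of -1.40 (SE 0.34, adjusted p = 0.00503) that did not pass after thinning to equal depth (-1.09, adjusted p = 0.0737). The share of all tested genes that lay lower without overlap was 3.37% there. The combination gave 9.29 to 13.5 against 2.53 to 7.97 CPM and -1.06 (SE 0.32, adjusted p = 0.0146), which was lost without well H7 (adjusted p = 0.0647), and 5.3% of all genes lay lower without overlap there. AXIN2 thus passed as lower in 4 of 6 treatments.

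The other treatments were butyrate and hemin, in which AXIN2 had its lowest means of Medium 1. With butyrate it was at 8.20 ± 3.66 CPM in Medium 1 and 6.19 ± 2.82 CPM in Medium 2 (log2 fold change -0.44, SE 0.33, adjusted p = 0.424), and with hemin at 6.91 ± 2.42 and 4.46 ± 1.46 CPM (-0.64, SE 0.37, adjusted p = 0.203). The tests of the difference in response between media did not pass for either, with 0.61 for butyrate (adjusted p = 0.982) and 0.42 for hemin (adjusted p = 0.731). Averaged over treatments AXIN2 was 2.09-fold lower in Medium 2 (log2 fold change -1.06, SE 0.14, adjusted p = 2.94e-09), and it passed under all 66 alternatives. Its gene lies on chromosome 17 from 65528563 to 65561647 on the minus strand, with no other gene over its last 1000 bases and 1 gene model over another stretch.

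NKD1, which binds Dishevelled and restrains the signal, had a smaller difference that appeared only in the average. It passed there as lower in Medium 2, at 6.54 ± 1.77 CPM in Medium 1 and 4.86 ± 1.79 CPM in Medium 2 (SD, n = 30), with a log2 difference of -0.44 (SE 0.13, adjusted p = 0.00437). Values ran from 3.59 to 10.4 CPM with a median of 6.13 in Medium 1, and from 1.19 to 8.91 CPM with a median of 4.96 in Medium 2, so the media overlapped. The sign was negative in 6 of 6 treatments, and no single treatment passed. Kynurenine came nearest with -0.84 (SE 0.33, adjusted p = 0.0993), and the untreated value was -0.31 (adjusted p = 0.678).

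Neither stem cell gene was detected at a level that could be compared. LGR5, the R-spondin receptor of crypt base cells, had 0 counts in all 60 libraries, of 117201108 counts in all. With 0 counts the exact 95% upper bound was 0.0315 CPM over the whole set, and the limit of 3 counts was 0.0256 CPM there and 2.23 CPM in the shallowest library, both for counting error only. ASCL2, a transcription factor of the same cells, had 1 count, in a hemin library of Medium 1 (well C2). The related receptor LGR4, by contrast, was at 44.1 CPM in Medium 1 and 41 CPM in Medium 2 (averaged log2 fold change -0.10, adjusted p = 0.161).

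LEF1, a DNA-binding partner of beta-catenin, had 3 counts, all in 1 library of hemin plus kynurenine in Medium 2 (well B8). TCF7, which encodes TCF1 of the same family, had 25 to 112 counts in each of the 60 libraries. Untreated libraries had 24.9, 31.2, 26.3, 28.5 and 31.3 CPM in Medium 1 and 33.2, 38.3, 34.1, 29.7 and 28.4 CPM in Medium 2, which overlap (log2 fold change 0.21, SE 0.20, adjusted p = 0.636). With kynurenic acid TCF7 was lower in Medium 2, with 43.8, 25.9, 43.5, 25.1 and 36.5 CPM in Medium 1 and 28.6, 19, 24.3, 17.8 and 23.6 CPM in Medium 2. These groups overlap too, and the log2 fold change of -0.62 (SE 0.20, adjusted p = 0.04) did not pass under 10 of 17 alternatives, with adjusted p up to 0.121. The average over treatments was -0.08 (SE 0.08, adjusted p = 0.428). The most abundant gene of the family was TCF7L2, not one of the 9, at 663 CPM in Medium 1 and 684 CPM in Medium 2 (averaged log2 fold change 0.03, adjusted p = 0.655).

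CTNNB1, the gene of beta-catenin itself, was slightly higher in Medium 2 on average, at 347 ± 70.2 CPM in Medium 1 and 404 ± 45.1 CPM in Medium 2 (SD, n = 30), a 1.17-fold difference (log2 fold change 0.23, SE 0.06, adjusted p = 0.000452). Untreated libraries had 366, 380, 479, 395 and 354 CPM in Medium 1 and 378, 409, 402, 404 and 434 CPM in Medium 2, with a log2 fold change of 0.04 and a 95% interval from -0.23 to 0.31 (adjusted p = 0.917). With hemin it passed: Medium 1 had 270, 238, 280, 222 and 368 CPM and Medium 2 had 441, 396, 450, 435 and 457 CPM. No library overlapped, which 6.88% of all tested genes also showed as higher, and the log2 fold change was 0.66 (SE 0.14, adjusted p = 0.000291), where 12.6% of genes passed as higher. With hemin plus kynurenine CTNNB1 had a log2 fold change of 0.33 (adjusted p = 0.0804), which passed at equal depth (0.392, adjusted p = 0.041) and without well C4 (0.414, adjusted p = 0.0347). CTNNB1 did not pass with butyrate (0.23, adjusted p = 0.292), kynurenine (0.02, adjusted p = 0.955) or kynurenic acid (0.09, adjusted p = 0.733). For hemin alone, the difference from the untreated gap was 0.62 (SE 0.19, adjusted p = 0.225). That difference passed only without the Medium 1 hemin library with the highest value, well G2 (0.725, adjusted p = 0.0463). For the combination the difference was 0.29 (SE 0.19, adjusted p = 0.68).

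The ends of TCF7 and CTNNB1 are overlapped on the opposite strand by SKP1 and ULK4. SKP1, a ubiquitin ligase subunit, was at 360 CPM in Medium 1 and 395 CPM in Medium 2 (averaged log2 fold change 0.13, adjusted p = 0.00279), and ULK4 was at 3.60 and 3.36 CPM (-0.15, adjusted p = 0.663). Counts of TCF7, far lower than those of SKP1, are uncertain if strand was not used. TCF7 lies on chromosome 5 from 134114711 to 134151865 and CTNNB1 on chromosome 3 from 41194741 to 41260096, both on the plus strand. ZNRF3 on chromosome 22 (28883592 to 29057487, plus strand) and NKD1 on chromosome 16 (50548330 to 50649249, plus strand) have no other gene over their last 1000 bases.

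In numbers, 4 of the 6 tested members passed in the comparison of media averaged over treatments, 3 lower and 1 higher, where 23.3% of all genes were lower and 22.8% higher. At these shares a count of 4 of 6 says little about the members. Within single treatments, members passed as lower in 1 case with butyrate (5.37% of all genes lower, 4.51% higher), 1 with hemin (11.4% lower, 12.6% higher), 2 with kynurenine (4.28% lower, 3.73% higher), 3 with kynurenic acid (4.26% lower, 4.3% higher) and 3 with the combination (8.32% lower, 8.02% higher). The 1 member called higher in a single treatment was CTNNB1 with hemin.

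**Figure D3:**
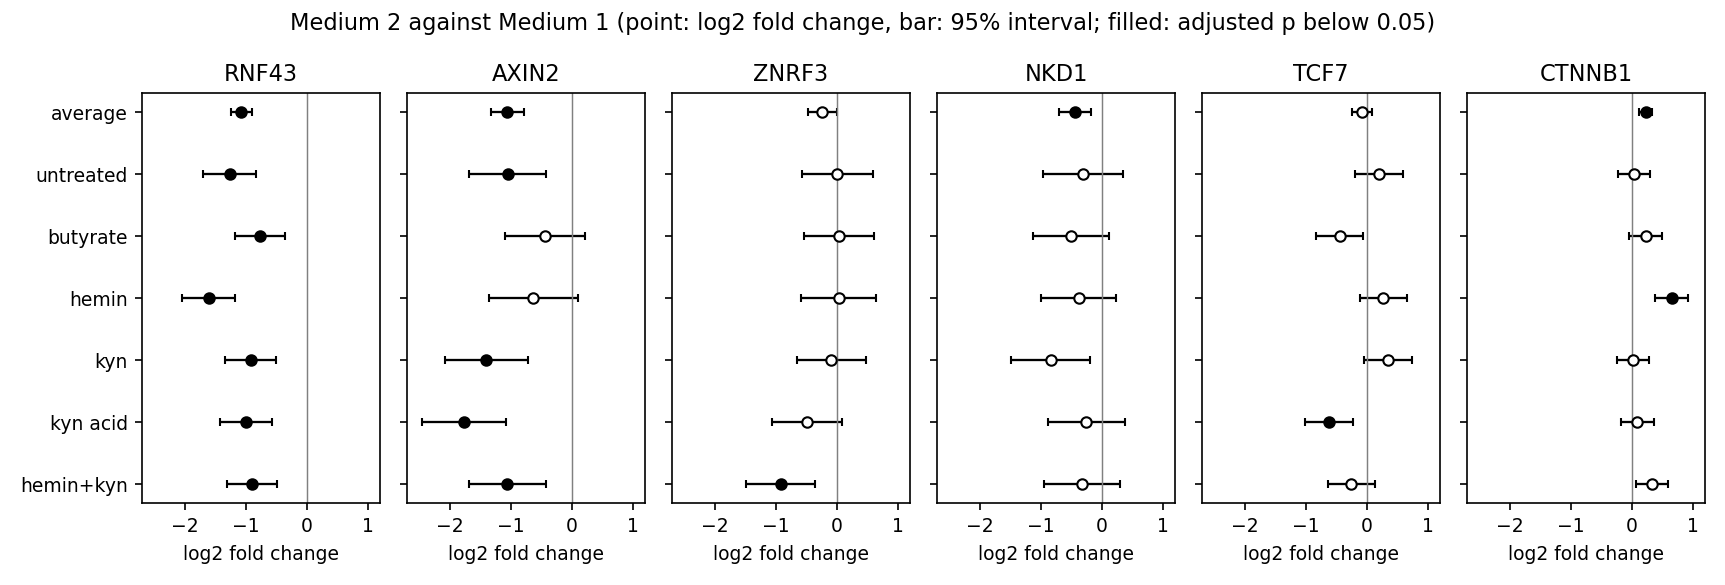
Log2 fold change of Medium 2 against Medium 1 for the 6 tested genes (columns), on average and within each treatment (rows; kyn, kynurenine), with bars for the 95% interval and filled points where the adjusted p is below 0.05. RNF43 is filled in all rows, from -0.765 to -1.61 within treatments, AXIN2 in 4 of 6 treatments, and ZNRF3, TCF7 and CTNNB1 in 1 each.

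The exposures were compared next with untreated spheroids of the same medium. The comparisons of a medium share their untreated libraries. No member passed in any of the 10 comparisons: edgeR called 0 of 60 tests, with 7 at an unadjusted p under 0.05, and DESeq2 called 2. Over all genes edgeR called 0.00885% with butyrate, 0.133% with hemin, 0.0354% with kynurenine, 0% with kynurenic acid and 0.0266% with the combination in Medium 1. In Medium 2 these shares were 0%, 0%, 0.0266%, 0.0177% and 0.558%. Few genes of any kind were called, so the count of 0 members lies at the background.

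The nearest values were those of hemin in Medium 1. AXIN2 was at 4.57, 7.12, 6.46, 5.50 and 10.9 CPM with hemin, against 9.26 to 18.5 CPM untreated, with overlap at 1 hemin library (log2 fold change -0.995, SE 0.30, adjusted p = 0.0674). CTNNB1 was at 276 ± 56.8 CPM with hemin and 395 ± 49.3 CPM untreated (SD, n = 5; log2 fold change -0.52, SE 0.14, adjusted p = 0.0581). DESeq2 called both, with adjusted p of 0.0494 and 0.0364, and so did edgeR without the libraries of wells B2 and A7 (0.0327 and 0.0173). CTNNB1 also passed without a filter on low counts (0.0312) and without well B1 (0.0436). Without well G2, the hemin library highest in both genes, they passed at -1.20 (adjusted p = 0.0151) and -0.64 (adjusted p = 0.00599). RNF43 was at 30.5 ± 7.79 CPM with hemin and did not pass (0.17, 95% interval -0.21 to 0.55, adjusted p = 0.629). In Medium 2 hemin gave -0.58 for AXIN2 (adjusted p = 0.757) and 0.10 for CTNNB1 (adjusted p = 0.884).

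AXIN2 had a negative log2 fold change in all 10 exposure comparisons, from -0.12 to -0.995, each against the same untreated libraries of its medium, and none passed. Its intervals are wide, as with butyrate in Medium 1 from -1.32 to -0.15 (adjusted p = 0.52) and kynurenic acid in Medium 2 from -1.59 to -0.09 (adjusted p = 0.571). For RNF43 the largest value was 0.43 with butyrate in Medium 2 (95% interval -0.03 to 0.88, adjusted p = 1). ZNRF3 reached -0.62 with the combination in Medium 2 (95% interval -1.21 to -0.03, adjusted p = 0.332), and TCF7 -0.53 with kynurenic acid in Medium 2 (95% interval -0.93 to -0.13, adjusted p = 0.472). NKD1 stayed between -0.29 and 0.45 in the 10 comparisons, with no adjusted p below 0.374.

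**Figure D4:**
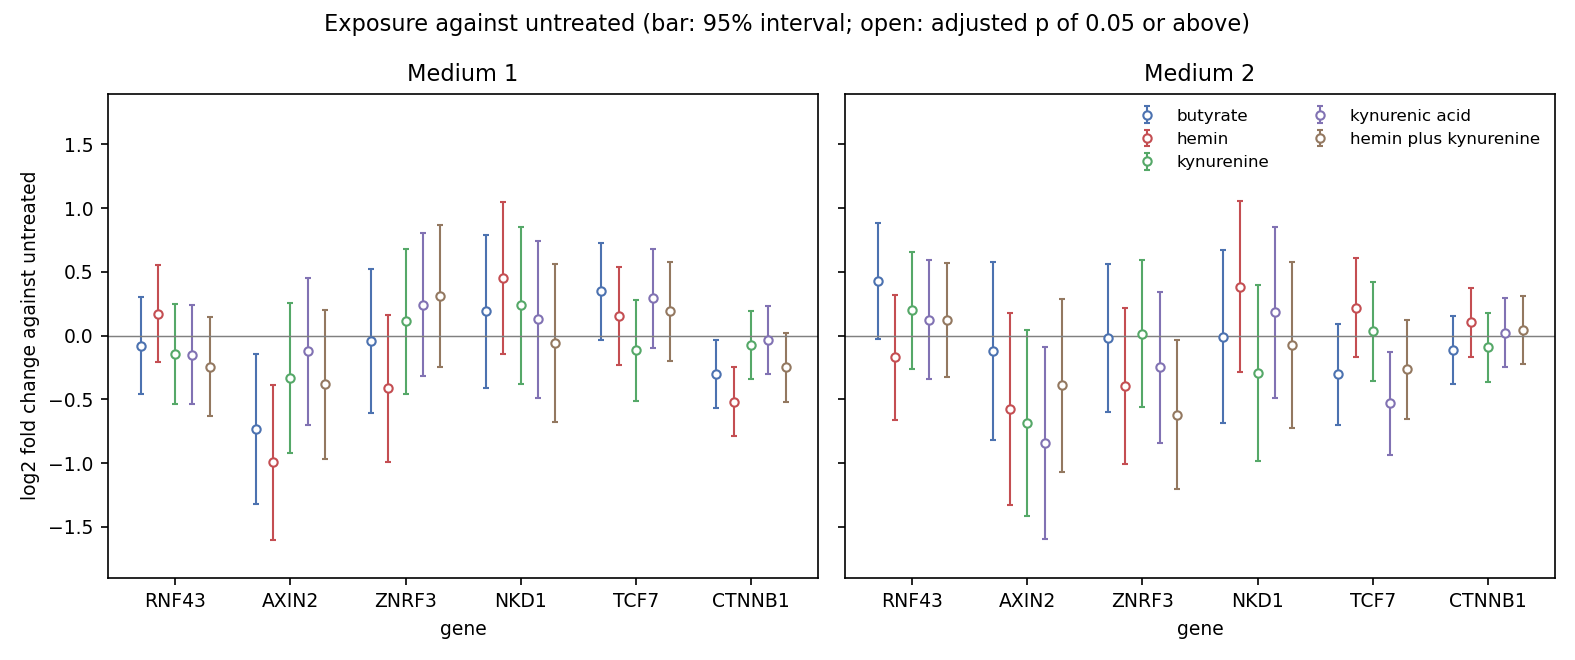
Log2 fold change against untreated spheroids of the same medium for each gene (horizontal axis) and exposure (colour), with bars for the 95% interval; open points did not pass. All 60 points are open, the AXIN2 points lie below 0, and those of CTNNB1 have the shortest intervals.

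The response to an exposure was then compared between media. None of 30 member tests passed by edgeR, with 4 at an unadjusted p under 0.05, and DESeq2 called 0. The shares of all genes called were 0% for butyrate, hemin and kynurenic acid, 0.0177% for kynurenine and 0.0266% for the combination. The 4 were CTNNB1 with hemin (0.62), ZNRF3 with the combination (-0.93), TCF7 with butyrate (-0.65, SE 0.28, adjusted p = 0.982) and TCF7 with kynurenic acid (-0.82, SE 0.28, adjusted p = 0.998).

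Kynurenine and kynurenic acid, which is made from kynurenine by a transaminase and ring closure, were given at the same dose over the same days. Kynurenic acid against kynurenine gave 12 member tests, 6 in each medium. EdgeR called 0 of them, with 2 at an unadjusted p under 0.05, and DESeq2 called 0, where 0.0354% of all genes were called in Medium 1 and 0.00885% in Medium 2. RNF43 differed by 0.00 in Medium 1 (95% interval -0.40 to 0.39) and by -0.07 in Medium 2 (-0.53 to 0.38), which leaves room for differences of that size in either direction. AXIN2 differed by 0.21 (-0.38 to 0.80) and by -0.16 (-0.96 to 0.64). TCF7 had the lowest unadjusted p, with 0.41 in Medium 1 (95% interval 0.02 to 0.80, adjusted p = 1) and -0.57 in Medium 2 (-0.97 to -0.17, adjusted p = 0.651), where it was at 33.9 ± 9.25 CPM with kynurenine and 22.7 ± 4.37 CPM with kynurenic acid.

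Other genes of the pathway were followed through 8 lists of 182 entries, a few of them in more than 1 list, of which 102 were tested. In the average over treatments 14 of them were higher (13.7%) and 31 lower (30.4%) in Medium 2, against 22.8% and 23.3% of all tested genes. Their median log2 fold change was -0.08, against -0.005 over all genes. Untreated, 3 were higher (2.94%) and 2 lower (1.96%), near the shares over all genes. The counts of single lists below are for the average and stand against the same 22.8% higher and 23.3% lower of all genes. The lists are described by these counts alone.

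The destruction complex and its regulators gave 3 higher and 10 lower of 24 in the average (median -0.12). The lower ones include the Dishevelled genes DVL1, whose products carry the signal from Frizzled, at 109 CPM in Medium 1 and 75.3 CPM in Medium 2 (log2 fold change -0.54, SE 0.06, adjusted p = 1.26e-11), and DVL2, at 26.4 and 18.1 CPM (-0.55, adjusted p = 4.37e-07). CSNK1E, a kinase that acts on Dishevelled, was lower too (-0.44, adjusted p = 3.99e-08). These 3 promote signalling rather than the breakdown of beta-catenin. DVL2 also passed as lower in untreated spheroids (-0.68, adjusted p = 0.0401), a call lost under 11 of 17 alternatives.

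Among ligands and their secretion 1 of 7 tested genes was higher and 2 were lower. WNT7B was at 4.67 CPM in Medium 1 and 1.91 CPM in Medium 2 (-1.28, SE 0.18, adjusted p = 2.14e-08), WNT10B was lower (-0.32, adjusted p = 0.0139) and WNT16 was higher (0.30, adjusted p = 0.00354). Of the receptors 1 of 13 was higher and 4 were lower, among them the alternative Wnt receptors RYK (-0.24, adjusted p = 0.00161), ROR1 (-0.45, adjusted p = 0.00228) and ROR2 (-0.37, adjusted p = 0.0029). Of 4 tested inhibitors only NKD2, the relative of NKD1, passed, at 9.73 and 6.08 CPM (-0.68, SE 0.13, adjusted p = 1.93e-05).

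The nuclear partners of beta-catenin had 4 higher and 5 lower of 19, near the shares over all genes of 22.8% and 23.3%. The corepressor TLE1 was lower at 21.8 CPM in Medium 1 and 14.3 CPM in Medium 2 (-0.62, SE 0.10, adjusted p = 1.47e-06), and also untreated (-0.83, adjusted p = 0.0384), a call lost under 8 of 17 alternatives. The coactivator CREBBP (0.28, adjusted p = 3.59e-06) and TBL1XR1, part of corepressor complexes (0.28, adjusted p = 3.07e-05), were higher.

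Other Wnt targets went in both directions: 2 of 21 were higher and 6 lower, with a median of 0.01. PLAUR, the urokinase receptor, was higher at 275 CPM in Medium 1 and 457 CPM in Medium 2 (0.74, SE 0.07, adjusted p = 8.99e-13), and passed in untreated spheroids under all 17 alternatives as well (0.88, SE 0.18, adjusted p = 0.00061). The calcium sensor VSNL1 (-0.60, adjusted p = 3.71e-10) and the adhesion protein FERMT1 (-0.36, adjusted p = 4.64e-07) were lower.

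Of the stem cell and crypt base markers 3 of 14 were higher and 3 lower. The cell cycle kinase CDK6 (0.37, adjusted p = 1.11e-06), the BMP coreceptor RGMB (0.60, adjusted p = 4.11e-06) and the MYC-induced gene CDCA7 (0.21, adjusted p = 0.00784) were the higher ones. CDK6 and RGMB passed untreated as well (0.47, adjusted p = 0.0469, and 0.90, adjusted p = 0.0314), but were lost under 10 and 8 of 17 alternatives. In that list OLFM4, SMOC2, HOPX, CLCA4 and SPINK4 had 0 counts in all libraries, as LGR5 did. Of 23 differentiation markers 12 had 0 counts, 3 were tested (CA2, CEACAM1 and NEUROD1), and edgeR called 0 of those, with adjusted p of 0.175 or more.

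**Figure D5:**
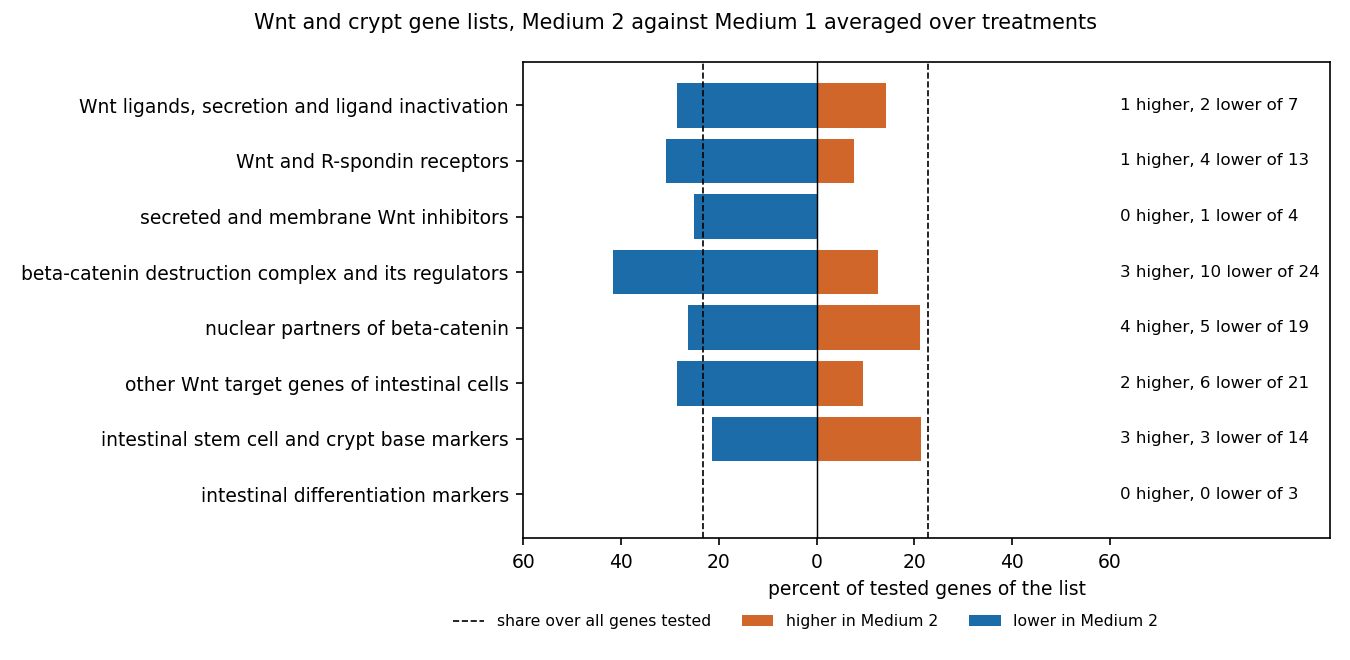
Share of tested genes of each list that passed as higher (orange, to the right) or lower (blue, to the left) in Medium 2, averaged over treatments, with dashed lines at the shares over all genes tested, 22.8% and 23.3%, and counts at the right. The destruction complex list has 10 lower of 24, and the differentiation markers have 0 called of 3.

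Genes whose levels followed those of a member most closely were found by Pearson's r of log2 CPM over the 60 libraries, which share the difference between media, so the values are descriptions. RNF43 was most like PILRB (r = 0.866), NEAT1 (0.859) and CPT1A (0.848). Within a medium these fell to 0.641, 0.558 and 0.505 in Medium 1 and to 0.125, 0.220 and 0.565 in Medium 2. AXIN2 was most like ID1 (0.778), ASAP2 (0.771) and PLK2 (0.755), with 0.637, 0.721 and 0.468 inside Medium 1 and 0.465, 0.402 and 0.536 inside Medium 2.

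ZNRF3 followed SSFA2 (0.702), FAT1 (0.692) and RBMS1 (0.690), with 0.879, 0.694 and 0.844 inside Medium 1 and 0.652, 0.695 and 0.471 inside Medium 2. CTNNB1 followed PGAM4 (0.903), RPL36A-HNRNPH2 (0.900) and ACTG1 (0.894), with ACTG1 at 0.936 in Medium 1 and 0.735 in Medium 2. The first of these is a near copy of PGAM1 and the next a readthrough gene, so their own counts are uncertain. NKD1 and TCF7 had no close match, with highest values of 0.590 for SLC29A2 and 0.511 for GPS1.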

How the data were processed

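RNA of HCT116 spheroids was measured by QuantSeq 3' FWD sequencing with unique molecular identifiers, from 48 ng of RNA and 18 PCR cycles per the labels' protocols. The labels name the molecule as cytoplasmic RNA. The authors deposited estimated counts per gene, which per the submitters' processing notes involved Salmon 1.5.2, STAR, cutadapt 3.4, UMI-tools 1.1.2 and FastQC 0.11.9 on GRCh38. Neither the annotation nor any use of strand is stated there. Of the non-zero values 21.4% were not whole (tolerance 1e-09), and all were rounded to whole numbers here.

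Groups came from the sample titles, which call the 5 samples of a group biological replicates. The treatment entry of the labels calls all 60 samples untreated and nutrient-rich, which goes against these titles, and was not used. Table columns carry the group and a plate well but no replicate number. Whether they are separate cultures is not stated, and p-values then reflect only the spread of these samples, which may be technical. No pair within a group agreed within sampling noise (chi-square per degree of freedom 2.27 to 21.5).

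Genes were kept by edgeR's filterByExpr (minimum count 10, minimum total 15), which left 11298, and scaled by TMM. AXIN2 reached the cutoff of 5.26 CPM in 27 libraries of Medium 1 and 10 of Medium 2 and NKD1 in 24 and 11, where 5 were needed. The other 4 tested members reached it in all 60. A quasi-likelihood model (edgeR 4.0.16, R 4.3.3) with 12 group means and 48 residual degrees of freedom gave 24 contrasts with two-sided F-tests, adjusted by Benjamini-Hochberg over all tested genes at 0.05. The SE was derived from the log2 fold change and F, and intervals are 95%. Bounds for single counts are exact. The steps were tested on simulated data. DESeq2 1.42.0, its size factors, no filter, thinning to equal depth, fewer groups, plate row and left-out libraries were the alternatives.

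The members and lists were chosen with earlier results of these data known, those of AXIN2 and RNF43 in particular. From each list, up to 3 passing genes with the smallest p in the averaged comparison of media and up to 2 in the untreated one are named. LGR4, TCF7L2, genes with 0 counts, tested differentiation markers and overlapping genes were named after their values were seen. Start regions come from RefSeq, positions from GENCODE v29.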

Additional observations from a re-analysis of the deposited data

How the results depend on the processing

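In the averaged comparison of media RNF43, AXIN2, NKD1 and CTNNB1 passed under all 66 alternatives, with log2 fold changes from -1.10 to -1.05 for RNF43, from -1.105 to -1.01 for AXIN2, from -0.468 to -0.399 for NKD1 and from 0.209 to 0.256 for CTNNB1. Untreated, 2 members passed, and 1 without the filter on low counts or with 1 library left out (range 1 to 2). Thinned to equal depth, 0 passed with butyrate (from 1) and 1 with kynurenine (from 2). With the combination 3 passed, and 1 to 4 with a library left out. For hemin against untreated in Medium 1, 0 passed, against 1 without the filter, 2 with DESeq2, 2 without wells B2 and A7, and 0 to 2 with a library left out, and for the difference of that response between media 0 to 1 with a library left out. The cause of these shifts was not tested. Calls of single genes that changed stand beside their values.

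Reversals of sign were limited to log2 fold changes between media near 0 that passed nowhere. ZNRF3 reached -0.003 untreated with only the groups compared, -0.107 with butyrate at equal depth, and -0.176 with butyrate and 0.032 with kynurenine without wells B2 and A7. With a library left out it ran from -0.104 to 0.184 untreated, from -0.176 to 0.238 with butyrate, from -0.088 to 0.251 with hemin and from -0.218 to 0.081 with kynurenine. CTNNB1 with kynurenine was 0.00 at equal depth and ran from -0.02 to 0.137 with a library left out.

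No paired analysis was possible because the columns carry no replicate number. The fit of media within an exposure on the compared groups alone was added after the data were seen. Depth limits AXIN2, NKD1 and the 3 members that could not be tested.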
